A study of Mus musculus with 10 samples.

Results

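Phase II conjugation enzymes attach glutathione, glucuronic acid or sulfate to drugs, hormones, bile pigments and reactive by-products, and hepatocytes are their main site of expression in the body. The genes described here are those with a probe annotated to a lone gene whose symbol belongs to the glutathione S-transferases (Gsta, Gstk, Gstm, Gsto, Gstp, Gstt and Gstz), the microsomal glutathione S-transferases (Mgst), the UDP-glucuronosyltransferases (Ugt1 to Ugt3) or the sulfotransferases (Sult). Of 45 such symbols on the array 44 were measured, out of 18012 measured genes. The remaining symbol, Sult2a2, had no value on any array. Each gene was read from its probe with the highest mean over all arrays, and 4 of the 44 had a second probe. The 44 were 17 glutathione S-transferase, 3 microsomal glutathione S-transferase, 12 UDP-glucuronosyltransferase and 12 sulfotransferase genes.

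Livers came from 5 mice given an antisense oligonucleotide (ASO) against miR-122, a microRNA that dominates the small RNA of hepatocytes, and from 5 mice given saline, each liver on its own 1-colour CodeLink array. Per the labels, male C57Bl/6 mice in the ASO group received 50 mg/kg by intraperitoneal injection 2 times a week for 4 weeks, and all livers were taken 2 days after the final injection. The saline mice followed the same schedule, and their labels give neither sex nor strain. The oligonucleotide was 2′-O-methoxyethyl-modified on a phosphorothioate backbone. Since the control was saline, effects of that chemistry and effects of blocking miR-122 cannot be told apart. The comparison asks which liver transcripts differ when miR-122 is blocked in the living animal.

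Glutathione S-transferases are soluble enzymes that couple glutathione to electrophiles. UDP-glucuronosyltransferases sit in the endoplasmic reticulum and use UDP-glucuronic acid, and sulfotransferases are cytosolic and use the sulfate donor PAPS. Many of these genes are driven in liver by HNF1 and HNF4 factors and induced through the receptors CAR, PXR and AhR or the stress factor NRF2, and several are expressed differently in male and female mice.

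All 10 arrays had the expression of liver. Hepatocyte markers were far brighter as a sum (6001 to 7854 intensity units in ASO livers and 3431 to 6800 in saline livers) than the highest sums of pancreas (2.33) and kidney (3.5) markers. The 3 intestine markers summed to 72.3 to 139 in ASO livers and 48.1 to 109 in saline livers. Fabp2 was the brightest of them, with means of 6.54 and 6.32 on the log2 scale. The Y-linked Eif2s3y lay between 2.56 and 4.26 on the log2 scale in ASO mice and between 3.31 and 4.78 in saline mice, while Xist stayed at or near the floor of the log2 scale (-2.38, the lowest value that was kept) on every array, as in male liver. Saline replicate 1 had a brightest value of 542, against 1198 to 2333 on the other arrays, and whether its highest values were clipped was not tested. Precision is limited by the number of arrays, and in whole liver fewer cells of a type and less RNA per cell cannot be told apart.

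The Ugt2 genes lie side by side on chromosome 5, and their upstream sequences are shown because the largest differences of the set lay in this cluster. The bases printed are the 125 that precede the RefSeq start of each gene in GRCm38.p6, 5′ to 3′ on the gene's own strand, with matches to the core palindrome of the HNF1 binding motif, GTTA and TAAC with any 5 bases between them, in capitals. These windows are chr5:86906938-86907062 for Ugt2b34, chr5:86926504-86926628 for Ugt2b1, chr5:87000735-87000859 for Ugt2b35 and chr5:87140341-87140465 for Ugt2b5. Those of the other 4 genes are chr5:87254789-87254913 for Ugt2b37, chr5:87337196-87337320 for Ugt2a3, chr5:87424204-87424328 for Ugt2b38 and chr5:87490872-87490996 for Ugt2a1. Ugt2b35 is on the plus strand and the other 7 are on the minus strand.
Ugt2b34: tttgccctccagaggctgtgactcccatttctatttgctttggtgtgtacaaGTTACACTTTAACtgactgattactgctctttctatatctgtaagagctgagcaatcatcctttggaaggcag
Ugt2b1: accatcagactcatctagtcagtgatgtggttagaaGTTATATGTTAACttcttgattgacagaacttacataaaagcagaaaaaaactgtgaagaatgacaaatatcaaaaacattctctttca
Ugt2b35: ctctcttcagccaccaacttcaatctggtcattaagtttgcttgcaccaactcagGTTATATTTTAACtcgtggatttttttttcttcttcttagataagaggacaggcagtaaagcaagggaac
Ugt2b5: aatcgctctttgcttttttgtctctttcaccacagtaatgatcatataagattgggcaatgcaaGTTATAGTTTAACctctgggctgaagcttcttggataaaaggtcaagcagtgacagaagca
Ugt2b37: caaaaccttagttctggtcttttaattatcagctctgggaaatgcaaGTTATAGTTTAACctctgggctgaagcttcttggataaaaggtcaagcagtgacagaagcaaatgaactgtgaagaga
Ugt2a3: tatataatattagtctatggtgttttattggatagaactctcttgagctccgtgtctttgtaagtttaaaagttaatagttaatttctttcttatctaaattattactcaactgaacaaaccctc
Ugt2b38: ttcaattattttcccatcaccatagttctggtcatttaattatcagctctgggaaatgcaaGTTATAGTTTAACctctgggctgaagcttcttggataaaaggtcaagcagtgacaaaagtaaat
Ugt2a1: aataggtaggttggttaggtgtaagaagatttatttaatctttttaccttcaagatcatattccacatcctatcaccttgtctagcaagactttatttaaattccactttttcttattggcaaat

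The HNF1 core, a palindrome that reads the same on both strands, stood between 61 and 89 bases before the start in all 6 Ugt2b genes and was in neither Ugt2a window. It was present in 71 of 32851 RefSeq promoter windows of the same length (0.216%), and the motif was chosen after these sequences were seen. Ugt2b5, Ugt2b37 and Ugt2b38 carried the identical match GTTATAGTTTAAC, and the windows of Ugt2b37 and Ugt2b38 had 107 of 125 bases in common (85.6%). Among the 40 genes of the set with a RefSeq promoter it was found within these 125 bases in these 6 only. A match describes letters in a window and does not show that a factor binds there. The 6 Ugt2b genes that share it did not have the same difference between the groups, with log2 fold changes between -1.62 and 0.37.

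Ugt2a3 had the smallest p of the 44 genes. Its human counterpart glucuronidates bile acids. The probe read 5.74, 5.46, 4.90, 5.01 and 5.27 in the ASO mice, against 6.14, 6.15, 6.45, 6.50 and 6.05 in the saline mice (log2 intensity). Every ASO liver was below every saline liver, and it was the only gene of the set with groups that did not overlap. Means were 5.28 ± 0.34 in ASO livers and 6.26 ± 0.20 in saline livers (SD, n = 5 each). The log2 fold change, ASO minus saline, which is called the difference from here on, was -0.98 ± 0.20 (SE, 95% interval -1.41 to -0.55), or 1.97-fold lower. With limma and Benjamini-Hochberg adjustment over all 36088 tested probes the adjusted p was 0.13, above the threshold of 0.05. Across all genes, groups did not overlap with the ASO livers lower in 1.72%, and with the ASO livers higher in 0.96%. Under quantile normalization the groups of Ugt2a3 overlapped and its difference was -0.82.

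Ugt2b37 had the largest difference of the set, -1.62 ± 0.47 (SE, 95% interval -2.66 to -0.58, limma adjusted p = 0.258). Its log2 intensities were 1.91, 0.96, -0.13, -0.65 and 0.94 in the ASO mice, against 2.58, 2.27, 2.26, 2.96 and 1.06 in the saline mice. All ASO livers but replicate 1 were below all saline livers, and ASO replicate 1 lay above the lowest saline liver, replicate 5. Means were 0.61 in ASO livers and 2.23 in saline livers (n = 5 each).

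Ugt2b1, whose rat counterpart glucuronidates testosterone and several drugs, read 3.79, 4.36, 4.10, 4.80 and 4.51 in the ASO mice, against 5.59, 5.50, 5.69, 4.99 and 3.98 in the saline mice. All ASO livers were below the 4 other saline livers, and saline replicate 5 lay among them. Its difference was -0.84 ± 0.33 (SE, limma adjusted p = 0.372), and without saline replicate 5 it was -1.13. Ugt2b38 read 4.13, 2.33, 1.83, 2.72 and 1.64 in the ASO mice, against 2.59, 4.21, 3.83, 3.10 and 3.31 in the saline mice, with ASO replicate 1 near the top of the saline range, and had a difference of -0.87 ± 0.45 (adjusted p = 0.498). Ugt2b34 had a difference of -0.35 ± 0.35, and saline replicate 5 was the lowest saline liver for it too (3.49, against 4.30 to 4.80 in the others).

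The brightness of Ugt2b5, which makes a widely expressed liver enzyme, ranged over 7.96 to 8.77 in ASO livers and 8.27 to 9.18 in saline livers, with a difference of -0.28 ± 0.22 (SE, limma adjusted p = 0.652), and -0.17 without ASO replicate 1 or without saline replicate 2. Ugt2b35 and Ugt2a1, a form best known from olfactory epithelium, were the Ugt2 genes with a positive value, 0.37 ± 0.32 and 0.41 ± 0.37. Neither passed (adjusted p = 0.694 and 0.707). In the Ugt2 cluster 6 of 8 genes thus had a negative log2 fold change, with a median of -0.60, and 3 of them (37.5% of the cluster) were lower at an unadjusted p under 0.05. Over all genes 55% of log2 fold changes were negative and 8.26% of genes were lower at that p, and over genes above the median level of all probes these shares were 62.6% and 11.3%. Ugt2 coding sequences are close to each other, the probe sequences were not used here, and cross-hybridisation between neighbours was not tested.

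**Figure D1:**
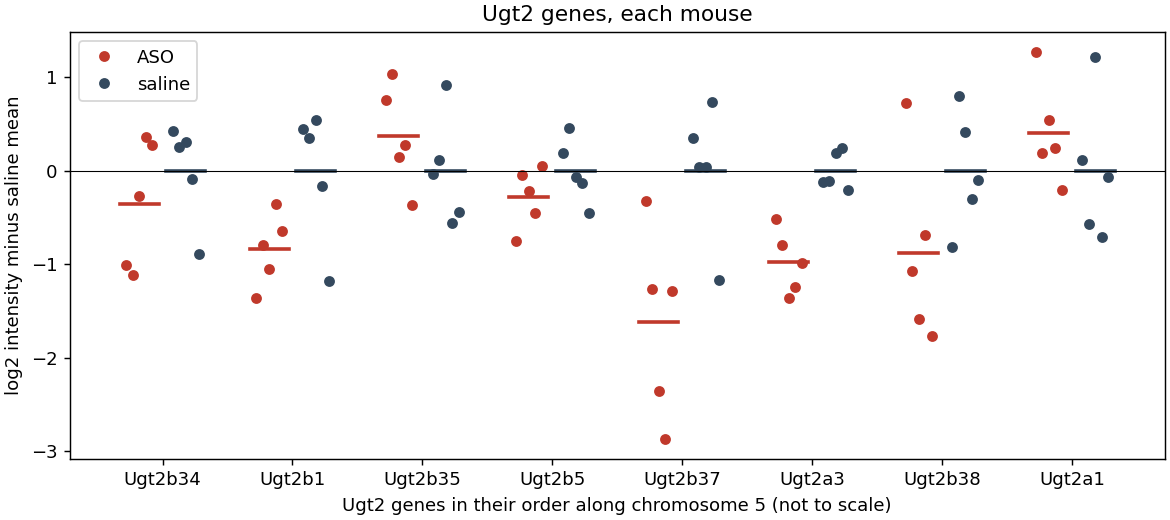
Log2 intensity of the 8 Ugt2 genes in each mouse, after subtraction of the gene's saline mean (vertical axis), with genes in their order along chromosome 5 (horizontal axis). Points are mice, ASO (red) left of saline (dark), and bars are group means. The ASO points of Ugt2a3 all lie below its saline points, and those of Ugt2b35 and Ugt2a1 average above them.

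Outside the Ugt2 cluster 3 of 4 glucuronosyltransferase genes had a negative difference. Ugt3a1, which in humans uses N-acetylglucosamine in place of glucuronic acid, had a difference of -0.43 ± 0.34 (SE, limma adjusted p = 0.66), with 5.88 to 8.05 in ASO livers and 7.08 to 7.88 in saline livers. Leaving out ASO replicate 3 gave -0.14, and leaving out ASO replicate 5 gave -0.69. Ugt3a2 had 2 probes that disagreed. The brighter read 7.90, 7.76, 7.94, 8.20 and 9.75 in the ASO mice, against 8.53, 8.27, 7.84, 9.52 and 7.68 in the saline mice, with ASO replicate 5 and saline replicate 4 far above the rest, and a difference of -0.06 ± 0.43 (95% interval -0.99 to 0.87). At the dimmer probe the values were 3.77, 3.89, 3.51, 3.24 and 3.22 in the ASO mice, against 5.06, 4.63, 4.15, 4.56 and 3.91 in the saline mice. All ASO livers were below all saline livers there, with a difference of -0.94 ± 0.24 (adjusted p = 0.209), and ASO replicate 5 was the lowest.

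**Figure D2:**
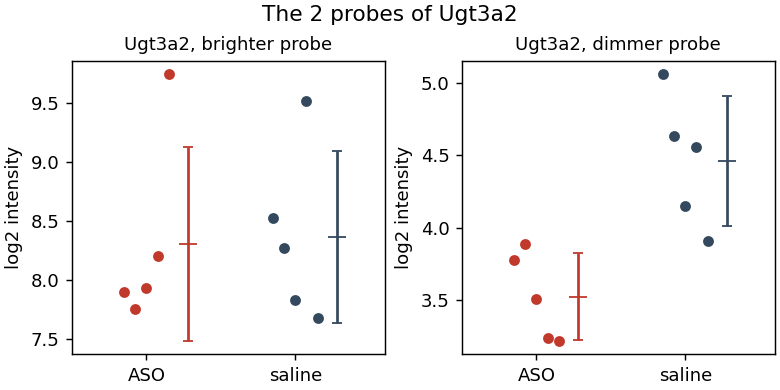
Log2 intensity (vertical axes) at the brighter (left) and the dimmer (right) probe of Ugt3a2 in ASO and saline livers. Points are mice, and bars with whiskers are group means with SD. The groups share their range at the brighter probe and do not overlap at the dimmer probe.

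The Ugt1 genes arise from 1 locus on chromosome 1 by alternative first exons joined to common exons, and they include the bilirubin enzyme Ugt1a1. Only Ugt1a2 and Ugt1a7c had a probe of their own. Ugt1a7c had a difference of 0.05 ± 0.33 (SE, 95% interval -0.66 to 0.76), and its sign turned when single arrays were left out. Ugt1a2 was dim, with 3 of 5 ASO livers at the floor and the saline livers at -2.28 to -0.86. Its difference of -0.60 ± 0.30 (limma adjusted p = 0.483) thus depends on where the floor lies. When intensities of 0 or less were dropped instead, with no floor, it was -1.43. Over the 12 glucuronosyltransferase genes 9 were negative, with a median log2 fold change of -0.39.

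Among the 17 glutathione S-transferase genes 11 had a negative log2 fold change, with a median of -0.26. At an unadjusted p under 0.05, 2 were lower (11.8%) and 1 higher (5.88%) in ASO livers, near the 8.26% and 4.21% of all genes. The theta gene Gstt1, whose enzyme acts on small halogenated compounds, read 6.72, 5.85, 5.03, 6.37 and 6.51 in the ASO mice, against 7.40, 7.40, 6.73, 6.15 and 7.25 in the saline mice. ASO replicates 1, 4 and 5 lay within the saline range, and the other ASO livers were below it. Its difference was -0.89 ± 0.35 (SE, 95% interval -1.65 to -0.13, limma adjusted p = 0.372).

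Gsto2, an omega enzyme that reduces dehydroascorbate, read 3.14, 2.78, 2.56, 2.29 and 3.25 in the ASO mice, against 3.41, 2.96, 3.58, 4.17 and 3.75 in the saline mice. Saline replicate 2 lay inside the ASO range and the other saline livers were above it. The difference was -0.77 ± 0.26 (SE, limma adjusted p = 0.298). The neighbouring Gsto1 had a difference of -0.46 ± 0.33, which rested on ASO replicate 4 (4.52, against 5.90 to 6.54 in the other ASO livers) and was -0.12 without it.

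Gstt4 was the gene higher in ASO livers at an unadjusted p under 0.05. It read 0.53, 0.48, 0.60, 0.60 and 0.19 in the ASO mice, against -0.31, -0.17, 0.38, -0.02 and 0.17 in the saline mice, and all ASO livers but replicate 5 were above all saline livers. The groups differed in mean by 0.47 ± 0.18 (SE, limma adjusted p = 0.362). Its probe lay near the median level of all probes (0.03 on the log2 scale).

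Alpha class enzymes handle lipid peroxidation products and mycotoxins. Gsta3, which in mice detoxifies the aflatoxin epoxide, read 8.54, 8.80, 7.28, 8.58 and 9.24 in the ASO mice, against 8.92, 9.53, 8.93, 9.22 and 8.48 in the saline mice. ASO replicate 3 was the lowest, and the groups otherwise shared most of their range. The difference of -0.53 ± 0.33 (SE, limma adjusted p = 0.577) was -0.23 without that array. Gsta4, which clears 4-hydroxynonenal, had a difference of -0.51 ± 0.27 (adjusted p = 0.499), and -0.34 without saline replicate 4.

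The 6 mu class genes sit together on chromosome 3 and ran from -0.60 for Gstm7 to 0.33 for Gstm4. Gstm1, the best known mu enzyme of liver, read 9.29, 9.39, 9.34, 9.15 and 8.42 in the ASO mice, against 8.71, 9.43, 9.69, 9.70 and 9.70 in the saline mice. Saline replicate 1 and ASO replicate 5 were the lowest of their groups by a wide gap. Its difference was -0.33 ± 0.25 (SE, limma adjusted p = 0.65). Leaving out saline replicate 1, the array with the low maximum, gave -0.51, and leaving out ASO replicate 5 gave -0.16. Gstm3, the mu gene with the smallest p, had a difference of -0.56 ± 0.29 (adjusted p = 0.49). Gstm2 and Gstm5 had differences of 0.09 ± 0.21 and -0.24 ± 0.21.

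The other soluble classes showed small differences. Gstz1, the maleylacetoacetate isomerase of tyrosine breakdown, had a difference of 0.17 ± 0.23 (SE, 95% interval -0.35 to 0.68). Gstk1, an enzyme of mitochondria and peroxisomes, had a difference of 0.25 ± 0.21 (95% interval -0.21 to 0.71), and Gstp3, of the pi class, -0.19 ± 0.21 (95% interval -0.65 to 0.27). Single arrays moved all of these, with Gstz1 at 0.04 without ASO replicate 2, 0.05 without saline replicate 1 and 0.29 without saline replicate 3. Gstk1 was at 0.09 when saline replicate 2 was left out. Gstp3 was at -0.30, -0.06 and -0.12 when ASO replicate 1, 4 or 5 was left out. For Gstt2 and Gstt3 the values were -0.26 ± 0.26 and 0.15 ± 0.29. These intervals still allow differences of up to 0.83 on the log2 scale for Gstt2.

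Mgst1, a glutathione transferase and peroxidase in the membranes of the endoplasmic reticulum and mitochondria, read 8.16, 7.32, 7.30, 8.10 and 8.56 in the ASO mice, against 8.74, 8.45, 8.33, 8.68 and 8.14 in the saline mice. ASO replicates 2 and 3 were well below all other livers, ASO replicate 4 was just below the lowest saline liver, and ASO replicates 1 and 5 were within the saline range. The difference was -0.58 ± 0.26 (SE, limma adjusted p = 0.438). Mgst2 and Mgst3, which also act on leukotrienes and lipid peroxides, had differences of 0.25 ± 0.25 and 0.00 ± 0.22. Upstream windows of Mgst1 (chr6:138140402-138140526) and Gsta3 (chr1:21240460-21240584), both on the plus strand, are shown because glutathione transferases are textbook genes of NRF2, which binds the antioxidant response element. Capitals mark its core, TGAC, any 3 bases and GC, on either strand.
Mgst1: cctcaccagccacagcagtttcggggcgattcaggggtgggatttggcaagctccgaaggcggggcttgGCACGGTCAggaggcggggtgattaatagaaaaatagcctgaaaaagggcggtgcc
Gsta3: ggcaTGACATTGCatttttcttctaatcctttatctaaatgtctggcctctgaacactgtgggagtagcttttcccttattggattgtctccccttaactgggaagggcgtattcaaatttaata
The core was in the window of 3 of 40 genes of the set (Gsta3, Gstm5 and Mgst1). That was 6% of the windows of the set, against 5.9% of all promoter windows of that length. Among the windows of the soluble and microsomal glutathione S-transferases it was 12% (3 of 25). With windows of 250 bases the share of these classes was 16%, against 10.2% of all windows.

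**Figure D3:**
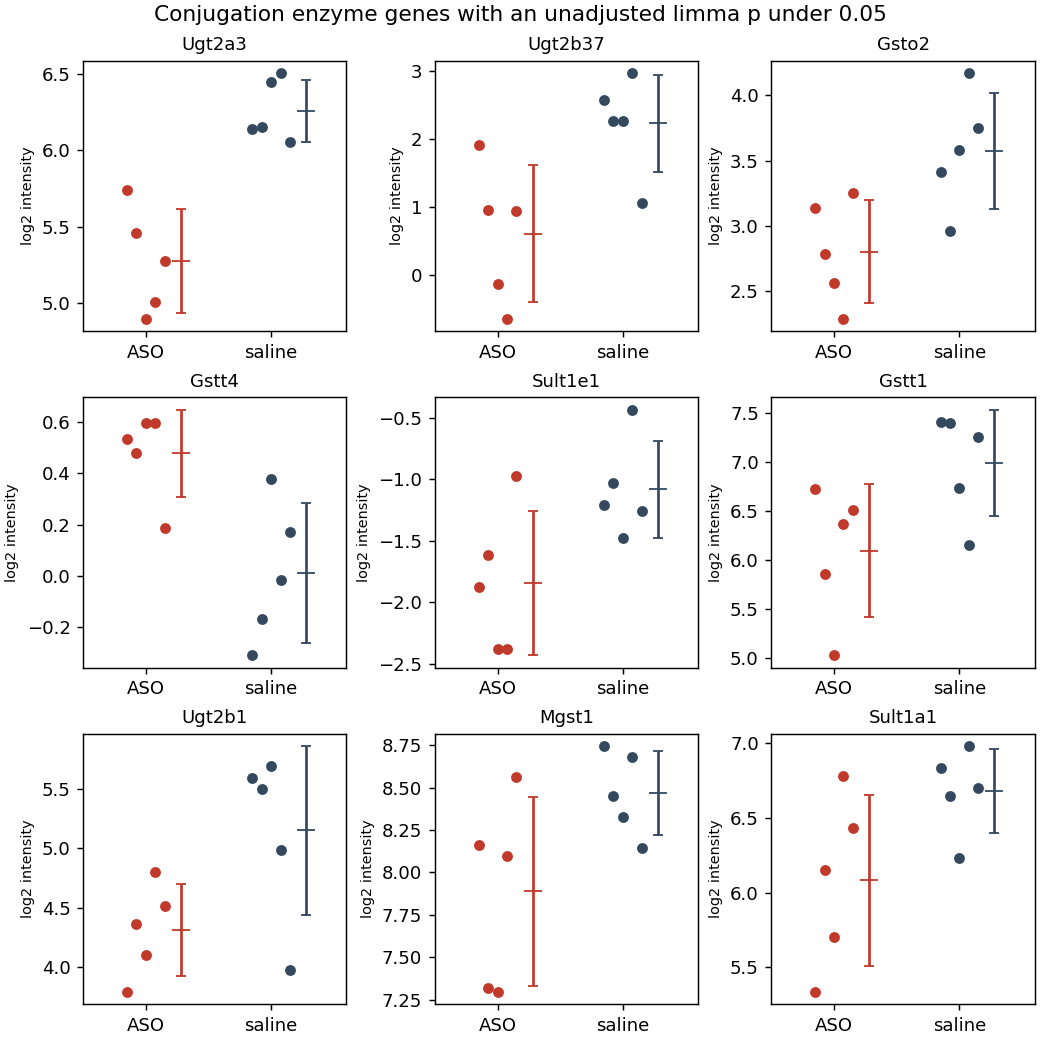
Log2 intensity (vertical axes, scaled per gene) of the 9 conjugation enzyme genes with an unadjusted limma p under 0.05, in ASO and saline livers. Points are mice, and bars with whiskers are group means with SD. Gstt4 averages higher in ASO livers and the other 8 lower, and the points of Ugt2a3 alone do not overlap.

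Of the 12 sulfotransferase genes 7 had a negative log2 fold change, with a median of -0.20. Of the 7 above the median level of all probes 5 were negative, with a median of -0.50. Sult1e1, the estrogen sulfotransferase, was dim, with -1.88, -1.61, -2.38, -2.38 and -0.97 in the ASO mice, against -1.21, -1.03, -1.47, -0.43 and -1.25 in the saline mice. ASO replicates 3 and 4 were at the floor, and ASO replicate 5 was within the saline range. The difference of -0.76 ± 0.29 (SE, limma adjusted p = 0.371) depends on where the floor lies for that reason. It was -2.50 ± 1.51 when intensities of 0 or less were dropped, with a limma p of 0.125 unadjusted and 0.586 adjusted. Sult1a1, the main phenol sulfotransferase, read 5.34, 6.15, 5.71, 6.78 and 6.43 in the ASO mice, against 6.84, 6.65, 6.23, 6.98 and 6.70 in the saline mice. ASO replicates 1, 2 and 3 were below all saline livers and replicates 4 and 5 within their range, with a difference of -0.60 ± 0.27 (adjusted p = 0.44).

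The other Sult1 genes did not pass at an unadjusted p under 0.05. Sult1c2 had a difference of -0.50 ± 0.23 (SE), Sult1d1, which sulfates catecholamines, -0.52 ± 0.34, and Sult1b1, which acts on thyroid hormones, -0.24 ± 0.22 with -0.46 ± 0.33 at its dimmer probe. Sult1c1 had a difference of 0.29 ± 0.27, with ASO replicate 5 the lowest liver (6.29) and the other ASO livers at 7.20 to 7.76, and was 0.53 without it and 0.16 without ASO replicate 1. Sult2a8, which sulfates bile acids in mouse liver, had a difference of 0.08 ± 0.26 (95% interval -0.48 to 0.65). Sult5a1 varied widely within both groups, over 1.35 to 3.81 in ASO livers and 2.15 to 4.20 in saline livers, with a difference of -0.70 ± 0.48 (limma adjusted p = 0.608). It was -0.37 when ASO replicate 4 was left out.

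Sult2b1, Sult3a1, Sult4a1 and Sult6b1 were below the median level of all probes. Sult2b1, a cholesterol sulfotransferase, had a difference of -0.15 ± 0.30 (SE), Sult3a1, known from female mouse liver, 0.05 ± 0.25, and Sult4a1, known from brain, 0.14 ± 0.30. Sult6b1 had a difference of 0.55 ± 0.36, which was 0.34 when ASO replicate 3 was left out. Saline replicate 1 was at the floor for Sult6b1, and without that array the difference was 0.27. With no floor, and intensities of 0 or less dropped, it was 0.59 ± 0.39. At the dimmer probe of Sult6b1 it was 0.19 ± 0.17, and 8 of 10 values were at the floor.

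Counted over all 44 genes, 0 passed the adjusted threshold, against 0.0888% of all genes (16 of 18012) by limma. At an unadjusted p under 0.05, 8 genes (18.2%) were lower in ASO livers, against 8.26% of all genes, and 1 gene (2.27%) was higher, against 4.21% of all genes. The arrays themselves carried more lower than higher genes among bright probes. Of genes above the median level 11.3% were lower at that p, beside 7 of the 37 conjugation enzyme genes above it (18.9%). Negative log2 fold changes made up 63.6% of the set, against 55% of all genes, and 67.6% of its members above the median level (25 of 37), against 62.6% of all genes above it. The median log2 fold change was -0.27 in the set, against -0.04 over all genes, and -0.33 in its members above the median level, against -0.11 over all genes above it.

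Leaving out ASO replicate 3 brought the 8 lower genes to 4, and leaving out saline replicate 2 or 4 brought them to 5. The 1 higher gene became 0 when saline replicate 1 or 2 was left out, and 2 when ASO replicate 2, ASO replicate 5 or saline replicate 3 was. After quantile normalization, where 6.34% of all genes were lower, 5.4% were higher and the median over genes above the median level was 0.0035, it was again 8 lower and 1 higher.

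**Figure D4:**
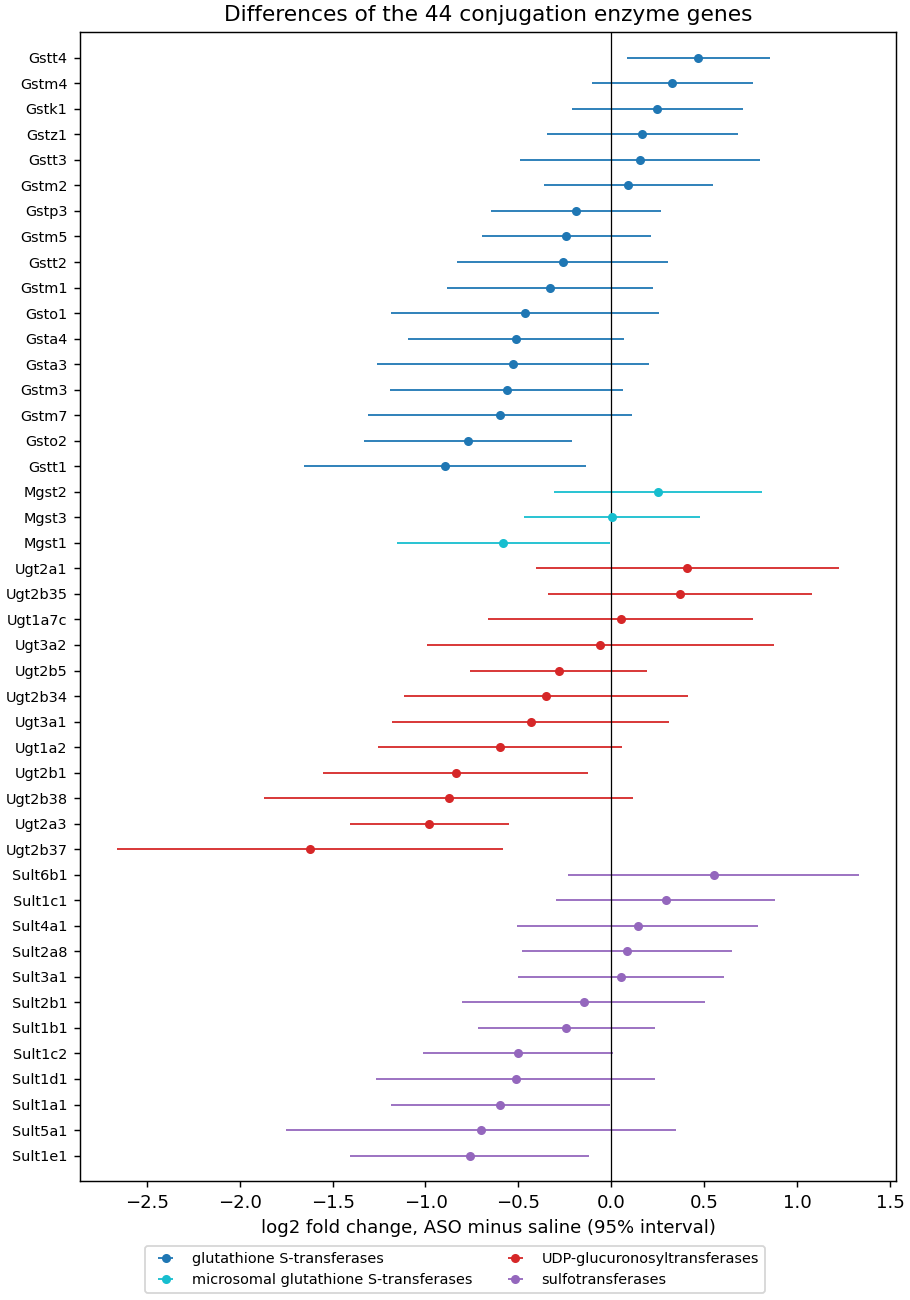
Log2 fold change, ASO minus saline, of the 44 conjugation enzyme genes (horizontal axis) with limma 95% intervals, ordered within each enzyme class. Ugt2b37 is lowest at -1.62 and Sult6b1 highest at 0.55, and the intervals of 9 genes leave out 0.

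To compare mice, for each of them the median deviation from the saline mean was taken over a class. For the glucuronosyltransferases it was -0.49, -0.59, -0.35, -0.40 and -0.49 in the ASO mice, against 0.17, 0.19, 0.11, -0.06 and -0.45 in the saline mice. All ASO mice were low, and saline replicate 5 lay among them. For the glutathione S-transferases it was -0.17, 0.17, -0.38, -0.43 and -0.08 in the ASO mice, against -0.16, -0.02, 0.10, 0.21 and 0.04 in the saline mice. ASO replicates 3 and 4 were the lowest and replicate 2 was near the top. For the sulfotransferases ASO replicate 1 stood apart (-0.47), with -0.17 to 0.05 in the other ASO mice and -0.24 to 0.14 in the saline mice.

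**Figure D5:**
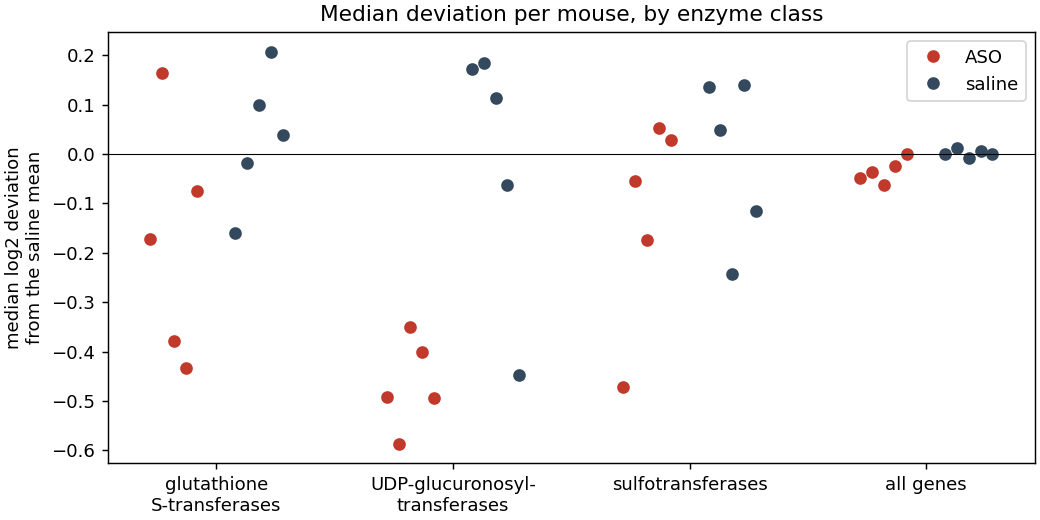
Median over the genes of a class of each mouse's log2 deviation from the gene's saline mean (vertical axis), for 3 enzyme classes and all genes (horizontal axis). Points are mice, ASO (red) left of saline (dark). ASO mice lie between -0.59 and -0.35 for the glucuronosyltransferases, where saline replicate 5 is at -0.45.

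The genes that supply and remove the conjugated groups were read from lists. The list of sulfate donor supply and desulfation also held the tyrosine sulfotransferases Tpst1 and Tpst2. Of its 13 measured genes 4 were lower (30.8%) and 0 higher at an unadjusted p under 0.05, against 8.26% and 4.21% of all genes. All but 1 of the 13 were above the median level of all probes, where 11.3% of genes were lower. The median log2 fold change of the list was -0.32. The 4 lower genes included Tpst2 and Tpst1, which sulfate tyrosines of secreted proteins (-0.68 ± 0.21 and -0.79 ± 0.28, SE). The others were Slc26a1, a sulfate transporter (-0.65 ± 0.21), and Papss2, which makes PAPS (-0.54 ± 0.22). None passed the limma adjusted threshold (adjusted p = 0.281 to 0.384). Papss2 averaged 1.85 ± 0.45 in ASO livers and 2.40 ± 0.12 in saline livers (SD, n = 5 each) and is named outside the rule, after its values were seen.

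Of 8 genes of UDP-glucuronic acid supply and deconjugation, 1 was lower (12.5%) and 0 higher at an unadjusted p under 0.05, against 8.26% and 4.21% of all genes. All 8 were above the median level of all probes, where 11.3% of genes were lower. Gusb, the lysosomal beta-glucuronidase, averaged 3.40 ± 0.11 in ASO livers and 3.85 ± 0.10 in saline livers (SD, n = 5 each). Its groups did not overlap, as was so for 1.72% of all genes with the ASO livers lower. The difference was -0.45 ± 0.14 (SE, limma adjusted p = 0.279). Rgn and Akr1a1, which act in the path from glucuronate to ascorbate, had differences of 0.37 ± 0.23 and 0.39 ± 0.24. Akr1a1 was at 0.24 without ASO replicate 2, 0.22 without saline replicate 1 and 0.08 ± 0.26 when all its probes were averaged. Of 13 glutathione synthesis and recycling genes, 0 passed at an unadjusted p under 0.05 in limma in either direction and 0 at the adjusted threshold. Ggct, Chac1 and Cth, which act in glutathione breakdown and cysteine supply, had differences of -0.46 ± 0.24, 0.37 ± 0.21 and -0.43 ± 0.34. Cth was at -0.10 when ASO replicate 3 was left out and -0.29 when saline replicate 4 was, and Chac1 was at 0.24 when ASO replicate 5 was.

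Other phase II transferases had 1 higher (7.69%) and 3 lower genes (23.1%) of 13 at an unadjusted p under 0.05, against 4.21% and 8.26% of all genes. All but 1 of the 13 were above the median level of all probes, where 3.53% of genes were higher and 11.3% lower. Acsm2, a medium-chain acyl-CoA synthetase of glycine conjugation, had a difference of 1.11 ± 0.27 (SE, limma adjusted p = 0.193). It was dim, with means of 0.18 in ASO livers and -0.93 in saline livers, against a median level of 0.03 over all probes. Every ASO liver was above every saline liver, but narrowly, with ASO replicate 3 at -0.50 and saline replicate 2 at -0.52. Baat, which joins bile acids to taurine and glycine, had a difference of -0.81 ± 0.24 (adjusted p = 0.273). Every ASO liver was below every saline liver, again narrowly, with ASO replicate 1 at 5.44 and saline replicate 5 at 5.46. Over all genes, groups did not overlap with the ASO livers higher in 0.96% and lower in 1.72%. Nat2, an arylamine acetyltransferase, had a difference of -0.68 ± 0.30. The third lower gene was the thiopurine methyltransferase Tpmt (-0.66 ± 0.30), named after its values were seen.

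Regulators and inducible genes of the same receptors had log2 fold changes of both signs, with 7 of 17 and 8 of 20 positive. Of 17 regulators 0 passed at an unadjusted p under 0.05 in limma and 0 at the adjusted threshold, with Stat5b at -0.57 ± 0.28 (SE, and -0.33 without ASO replicate 3), Maff at 0.44 ± 0.24 and Rxra, the partner of CAR and PXR, at 0.31 ± 0.18. Of 20 inducible genes 1 was higher (5%) and 3 lower (15%), against 4.21% and 8.26% of all genes. All but 3 of the 20 were above the median level of all probes, where 3.53% of genes were higher and 11.3% lower. Txnrd1, an NRF2 gene, had a difference of -0.80 ± 0.24, and the CAR gene Cyp2b10 had a difference of -1.04 ± 0.40. Cyp2b13, of the same subfamily, was dim, with -1.89, 0.41, -1.18, -2.02 and -0.73 in the ASO mice, against -2.18, -2.38, -2.38, -2.38 and -1.72 in the saline mice. Of its saline livers 3 of 5 were at the floor, so its 1.12 ± 0.40 depends on where the floor lies, and with no floor it was 1.65. Ephx1, an epoxide hydrolase named here because of its value, had a difference of -0.78 ± 0.31. The 12 exporters and uptake carriers had 1 higher (8.33%) and 2 lower (16.7%), against 4.21% and 8.26% of all genes. All but 2 of the 12 were above the median level too. Abcc3 and Abcg2, which export glucuronides and sulfates, had differences of -0.82 ± 0.25 and -0.83 ± 0.32, and Slc22a7, an uptake carrier of organic anions, 1.05 ± 0.38. When all its probes were averaged, Slc22a7 was at 0.67 ± 0.35, with an unadjusted limma p of 0.080. None of these passed the adjusted threshold.

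Set beside them were 56 cytochrome P450 genes of families 1 to 4, the phase I oxidases. At an unadjusted p under 0.05, 3 were higher (5.36%) and 4 lower (7.14%), near the 4.21% and 8.26% of all genes. Their median log2 fold change was 0.07, against -0.04 over all genes. The difference between the gene sets was not tested. The smallest p among them belonged to Cyp2j5, with -0.66 ± 0.18 (SE, limma adjusted p = 0.241).

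Markers of other liver cells did not pass the adjusted threshold either. At an unadjusted p under 0.05, 0 of 9 hepatocyte and 0 of 8 Kupffer cell markers differed by limma, and 2 of 7 lymphocyte markers (28.6%) were lower. Over all genes 8.26% were lower and 4.21% higher at that p. Of the 7 lymphocyte markers 5 were at or below the median level of all probes. The 2 lower ones were Ms4a1 and Klrb1c, named after their values were seen, and Klrb1c had 2 ASO values at the floor. Cd79a was the brightest lymphocyte marker, with means of 2.15 in ASO livers and 2.66 in saline livers, and weighed most in the sum. Summed lymphocyte marker intensity was 6.8 to 9.55 in ASO livers and 9.38 to 13 in saline livers, and the Kupffer sum was 49.7 to 273 in ASO livers and 120 to 299 in saline livers. Of the endothelial markers 1 of 8 was higher (12.5%), of the bile duct markers 1 of 6 was lower (16.7%), and of the stellate cell markers 0 of 8 differed. Among genes that mark male mice or their liver 5 of 6 had a negative log2 fold change, against 55% of all genes. Their median was -0.38, and 0 of 6 differed at an unadjusted p under 0.05 in limma. The 5 included the Y-linked Eif2s3y, Kdm5d and Uty, and Uty was dim, with 1 value at the floor. Among genes that mark female mice or their liver 2 of 6 were negative, with a median of 0.11, and 1 of 6 (16.7%) was higher at that p. The higher gene was Acot3 (0.81 ± 0.26, SE), named after its values were seen. Xist, in the same list, had 6 of 10 values at the floor. The part of all these markers in the values above was not tested.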

How the data were processed

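Liver RNA of 5 ASO and 5 saline mice was measured on 1-colour arrays, 1 per mouse. The values deposited by the authors are intensities on a linear scale, with medians of 1.03 to 1.05 on the 10 arrays. Background subtraction, scaling and software were not described in the labels used, and each array held 74 to 377 values of 0 or less. Of 36227 probes 139 with fewer than 3 values in a group were left out, leaving 36088. Values below the 10th percentile of positive values (0.192) were set to it before log2. Probe annotation gave 21615 probes a lone gene, of which 21487 matched a gene of GRCm38.p6 by Entrez ID and 0 changed symbol. Differences were fitted with limma 3.58.1 in R 4.3.3, as a two-sided test without covariates, and p-values were adjusted by Benjamini-Hochberg over the 36088 probes, and the fit was tested on simulated data. P-values measure the spread between mice.

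Genes were named if their unadjusted p was under 0.05, and from each family the gene with the highest mean and the gene with the smallest p were added, as were up to 3 genes with the smallest p from each pathway list. The gene set and lists were chosen with earlier results of these data known. Promoter windows are from RefSeq, where 40 of 44 genes matched (Gsta4, Gstt2, Sult4a1 and Ugt3a2 did not), and were aligned with Biopython 1.88. Alternatives were quantile and cyclic loess normalization, no floor, a pseudocount, array weights, a trended and robust eBayes, restriction to probes brighter than the median, averaging a gene's probes and leaving out each array. Using the dimmer probe of the 4 genes with a second probe was added after the data were seen.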

Additional observations from a re-analysis of the deposited data

Results flagged for a closer look

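In 6 of 88 sets of 5 values a mouse lay far from the other 4 of its group by Dixon's criterion at the 95% level, which chance alone meets in about 1 of 20 sets. ASO replicate 5 did so for 3 genes, with Gstm1 at 8.42 (9.15 to 9.39 in the other ASO mice, log2 intensity), Gstt4 at 0.19 (0.48 to 0.60) and Ugt3a2 at 9.75 (7.76 to 8.20). For Gstm1 and Gstt4 it was the lowest mouse and for Ugt3a2 the highest. ASO replicate 2 had Mgst2 at -1.87, with the other ASO mice at -0.92 to -0.56. Saline replicate 1 had Gstm1 at 8.71, with 9.43 to 9.70 in the other saline mice, and it is the array whose brightest value was low (542). Saline replicate 3 had Sult1c1 at 7.43, above the other saline mice at 6.73 to 6.93.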

How the results depend on the processing

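No paired analysis was possible because the labels give no replicate numbers that link ASO and saline mice. The count of 0 genes past the adjusted threshold stayed 0 under every alternative, and Ugt2a3 came nearest (adjusted p = 0.064 with only probes above the median level, up to 0.306 without saline replicate 2). Leaving out single arrays gave 4 to 9 lower genes and 0 to 2 higher genes at an unadjusted p under 0.05, and 1 to 3 genes with every ASO mouse below and 0 to 1 with every ASO mouse above every saline mouse. That count of 1 below was 0 under quantile normalization and 2 with the dimmer probes of the genes with 2 probes, where Ugt3a2 joined. The median of the set ran from -0.35 to -0.20 without single arrays, that of the glutathione S-transferases from -0.37 to -0.12, of the glucuronosyltransferases from -0.55 to -0.29 and of the sulfotransferases from -0.33 to -0.11, the last being -0.50 with only probes above the median level, where fewer genes are left. All these medians stayed negative, the set's at -0.21 after quantile normalization. Named genes near 0 turned sign without single arrays, where Ugt1a7c ran from -0.14 to 0.22, Ugt3a2 from -0.42 to 0.23, Sult2a8 from -0.046 to 0.28 and Sult2b1 from -0.37 to 0.033, and Ugt1a7c was -0.000292 with array weights. The causes were not tested.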

Other observations

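Probes annotated to several genes were outside the gene set, and 7 of them held conjugation enzymes. The probe shared by Gstp1 and Gstp2, pi class enzymes abundant in male mouse liver, read 10.09, 10.50, 10.35, 10.09 and 10.44 in the ASO mice, against 8.77, 9.69, 10.02, 10.18 and 10.24 in the saline mice (log2 intensity). The log2 fold change was 0.51 ± 0.27 (SE, limma adjusted p = 0.502). Saline replicate 1 was the lowest of its group, and its reading was near the brightest value of that array (9.08 on the log2 scale). Whether clipping lowered it was not tested. The Ugt1a6a and Ugt1a6b probe, for enzymes that glucuronidate phenols, read 4.17, 3.82, 3.04, 2.97 and 4.04 in the ASO mice, against 4.96, 4.31, 4.18, 4.05 and 4.29 in the saline mice, with -0.75 ± 0.28 (adjusted p = 0.358). A probe that matches 8 Ugt1a genes, Ugt1a1 among them, had a difference of 0.27 ± 0.27, so probes of this locus did not share a direction. Probes of Gsta1 with Gsta2 had -0.09 ± 0.26 and -0.58 ± 0.65, that of Gstm2 with Gstm6 -0.31 ± 0.21, and that of Mgst3 with Ubqln1 -0.35 ± 0.30.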
